A study of Homo sapiens with 12 samples.

Results

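The AP-1 transcription factor genes are JUN, JUNB, JUND, FOS, FOSB, FOSL1, FOSL2, ATF3, BATF and BATF3, 10 of the 62700 genes of the annotation (GENCODE v44). Their chromatin accessibility was read by ATAC-seq in 2 human cancer cell lines from the 100-bp bins of each line's table that lie within 30 kb of any annotated transcription start site (TSS) of a member. An accessible region is a run of adjacent bins. The members held 76 of the 79177 regions of the DU-145 table (1111 of 709366 bins), 64 of the 46298 regions of the BT-549 table (948 of 472994 bins) and 53 of the 32671 runs of bins that both tables share. A member promoter is a region with a bin within 1 kb of a member TSS, the promoter of another gene is one within 1 kb of any other TSS, and the remainder are distal.

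DU-145 is a castration-resistant prostate cancer (CRPC) line and BT-549 a triple-negative breast cancer (TNBC) line. All cells carried tet-MUC1shRNA, a tetracycline-inducible short hairpin RNA against MUC1. In each line, 3 biologically independent replicates received vehicle (0.1% DMSO, also labelled untreated) and 3 received doxycycline (DOX) for 7 days, and each of the 12 libraries was made from 50000 cells. DOX itself and MUC1 silencing share 1 contrast here and cannot be told apart, and cells with another hairpin are not analysed here. In bulk chromatin, a share of cells with an open site and the degree of opening per cell cannot be told apart either.

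AP-1 is a dimer of basic leucine zipper (bZIP) proteins. JUN, JUNB and JUND can pair among themselves or with the FOS proteins, whereas FOS, FOSB, FOSL1 and FOSL2 need a JUN partner to bind DNA. ATF3, BATF and BATF3 are related bZIP factors that also form dimers with JUN proteins. AP-1 binds the TPA-response element (TRE) TGACTCA and, with ATF partners, the longer cAMP-response element (CRE) TGACGTCA. FOS, FOSB, JUNB and ATF3 are immediate early genes that respond to serum, growth factors or stress, and FOSL1 is known for its role in mesenchymal carcinoma cells.

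The summed coverage of a library, used here as its size, was 1.24e+07 to 2.52e+07 in the 6 DU-145 libraries. In BT-549 it was 9.14e+06 to 1.36e+07 with vehicle but 2.50e+06 to 3.27e+06 with DOX. Replicates correlated at r of 0.979 to 0.987 across regions on the log2 scale, except among the shallow BT-549 DOX libraries, at 0.921 to 0.932. Of the marker genes, the DU-145 table held promoter regions for 6 of 6 epithelial, 5 of 6 mesenchymal (all but TWIST1), 2 of 4 prostate luminal (KLK3 had none) and 3 of 3 breast luminal genes and, of 3 blood cell genes, for PTPRC alone (2.39 in vehicle and 15.3 in DOX). The BT-549 table held them for 2 of 6 epithelial (ESRP1 and GRHL2), 6 of 6 mesenchymal, 2 of 4 prostate luminal, 2 of 3 breast luminal and 0 of 3 blood cell genes. Some markers moved with DOX, and their part in the results was not tested. In DU-145, 3 of 6 epithelial promoters were higher and 3 lower, and of 5 mesenchymal ones 0 were higher and 3 lower. Of all promoters of the line 18.9% were higher and 28.6% lower. In BT-549, 1 of 2 epithelial promoters was higher and 0 lower, and of 6 mesenchymal ones 2 were higher and 1 lower. There 16.0% of all promoters were higher and 10.2% lower. The hairpin acts on MUC1 RNA, so MUC1 accessibility does not check the labels. The MUC1 promoter had a log2 fold change of -0.17 with DOX in DU-145 (adjusted p = 0.053) and of 0.02 in BT-549 (adjusted p = 0.91). At the limit of the window, the last DU-145 region inside it lay 29547 bp from a JUN TSS (7.57 in vehicle and 4.59 in DOX) and the nearest one outside it 30388 bp from a FOSL1 TSS (4.54 and 6.34).

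The promoter letters that AP-1 and ATF proteins could read are shown first, because JUN is known to regulate its own promoter. RefSeq promoters (GRCh38.p14, 250 bases before to 50 after a start) were matched for 8 of the 10 members, all but FOSL1 and BATF3. Capitals mark a match to the CRE TGACGTCA or to the variants TGACATCA and TTACGTCA, searched on both strands, in 30 bases of the gene's strand, 5′ to 3′.
JUN, chr1:58784096-58784125, minus strand: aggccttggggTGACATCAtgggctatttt
FOSB, chr19:45467925-45467954, plus strand: caaggggcgggTGACGTAAgcaggggggcg
ATF3, upstream start, chr1:212565273-212565302, plus strand: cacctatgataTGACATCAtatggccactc
The match starts 67 bases before the start site in JUN and 60 before it in FOSB. The JUND promoter, the one with the highest rise in BT-549, is intergenic and is shown whole for its 250 bases before the start.
JUND, chr19:18281623-18281872, minus strand: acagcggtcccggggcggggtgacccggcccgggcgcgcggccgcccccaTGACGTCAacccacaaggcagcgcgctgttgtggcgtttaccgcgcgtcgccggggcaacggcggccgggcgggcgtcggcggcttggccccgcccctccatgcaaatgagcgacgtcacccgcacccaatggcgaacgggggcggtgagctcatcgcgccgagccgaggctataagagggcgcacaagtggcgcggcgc
The CRE stood in the RefSeq promoter of JUND and in 1.85% of all 35116. TGACATCA stood in those of JUN and ATF3 (2.61% of all), TTACGTCA in that of FOSB (0.416% of all) and the TRE in that of FOSL2 (4.95% of all). The upstream start of ATF3 with the match had no accessible promoter region in either line. The main ATF3 promoter, from which the ATF3 values below are read, was not among the RefSeq promoters. Its accessible region holds TTACGTCA. A match is a description of the letters and not of a bound site.

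In vehicle-treated cells, every member except BATF had an accessible promoter, and all 6 vehicle libraries had a peak there. BATF, which is best known from lymphocytes, had no promoter region in either table and no peak at its start in any of the 12 libraries. In the following, a value is the mean coverage per 100-bp bin of a region, scaled by library sum within a line. It is a level per length, but it also depends on how far a region extends past its start. In DU-145, FOSL2 was highest at 101 ± 2.85 (SD, n = 3), followed by ATF3 at 71.0 ± 4.80 and JUN at 63.1 ± 2.98, and none of these ranges overlapped its neighbour. JUNB (47.3), FOS (44.6), JUND (44.05) and FOSL1 (42.9) formed an overlapping series. BATF3 (33.9 ± 2.04) and FOSB (21.6 ± 1.39) were lowest, each apart from its neighbour. In BT-549, JUN (34.3 ± 3.40) and FOSL2 (34.2 ± 1.36) headed the order with overlapping libraries, ATF3 followed at 25.03 ± 1.24, and FOSL1 (12.8), FOSB (12.7) and BATF3 (12.2) overlapped at its foot.

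Within 500 bp of the canonical start, where each of the 9 members is read from 10 bins, the order was another one. In DU-145, FOSL2 (189) and ATF3 (185) overlapped at the top, followed by JUN (145.3), JUND (102), FOSL1 (73.6), FOS (69.1), BATF3 (48.8), JUNB (44.2) and FOSB (12.5), and of these neighbours only FOSL1 and FOS overlapped as well. JUNB thus stood above JUND, FOS, FOSL1 and BATF3 over whole regions and under them at the start. In BT-549, JUN (77.1) stood apart from ATF3 (40.3), FOSL2 (39.8) and JUND (39.3), which overlapped, and FOSB was lowest (8.19).

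**Figure D1:**
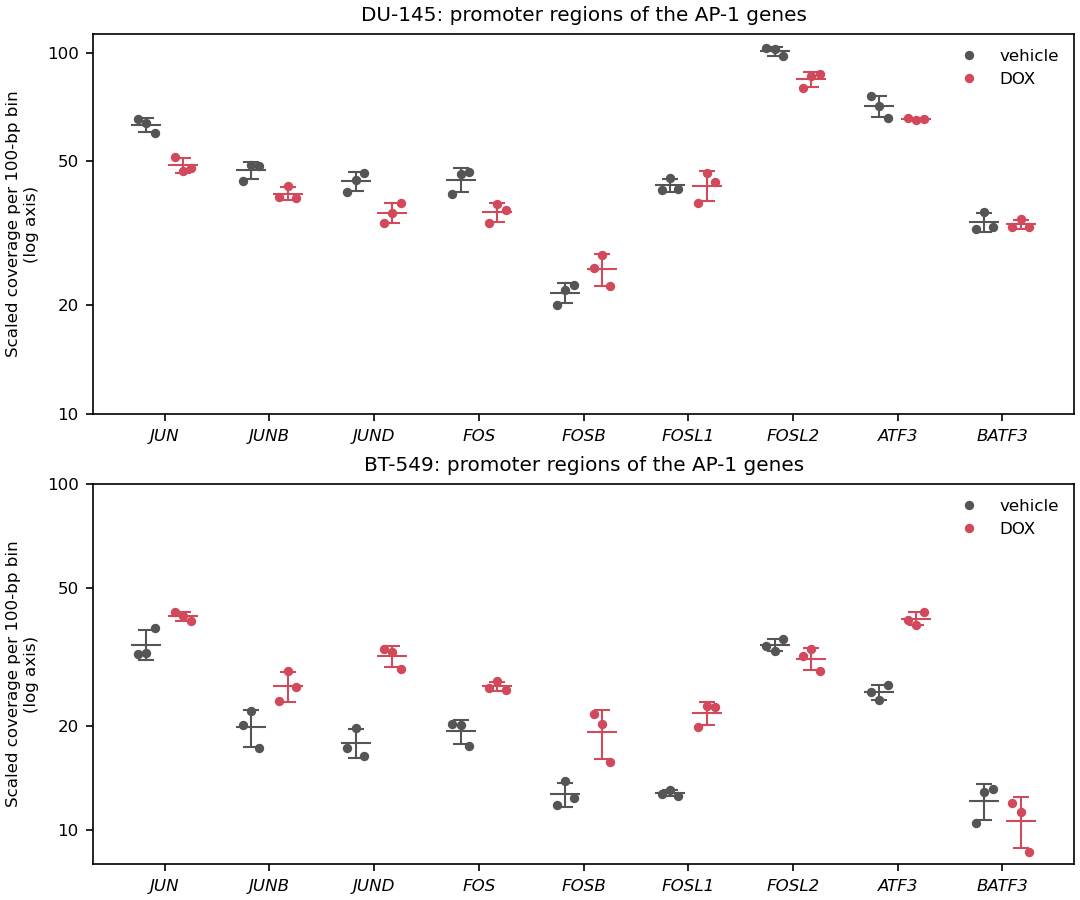
Scaled coverage per 100-bp bin (log axis) of the promoter region of 9 members in each library of DU-145 (top) and BT-549 (bottom). Points are libraries, long bars the mean and error bars the SD of 3. In DU-145 the DOX points of JUN (46.9 to 51.3) lie under the vehicle points (59.8 to 65.6), and in BT-549 those of JUND (29.2 to 33.2) lie above them (16.4 to 19.7). The falls in DU-145 turned direction when a GC trend was removed.

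With DOX in DU-145, 5 of the 9 members with a promoter region lost accessibility there on the library-sum scale, namely JUN, JUNB, JUND, FOS and FOSL2, and none gained. FOSL2 lost it in a further region around its downstream starts, so that 6 of the 10 member promoter regions were lower and 0 higher, with a median log2 fold change of -0.24. Of all promoter regions in DU-145, 28.6% were lower and 18.9% higher, with a median of -0.07. The test was edgeR's quasi-likelihood test on region sums over all regions of the table, with Benjamini-Hochberg adjustment and a threshold of 0.05 on the adjusted p.

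JUN, the founding subunit, was read from a region of 4500 bp on chromosome 1 (58781501 to 58786000). It held 65.6, 64.0 and 59.8 in vehicle and 51.3, 46.9 and 48.0 in DOX. The groups did not overlap, and JUN fell by 0.37 on the log2 scale (SE 0.07, edgeR adjusted p = 2.46e-05). JUND, a constitutively expressed subunit, held 41.2, 44.5 and 46.4 in vehicle and 33.9, 36.0 and 38.3 in DOX. Here too every DOX library was under every vehicle library, with a log2 fold change of -0.29 ± 0.08 (adjusted p = 0.0025). JUNB, often an antagonist of JUN, held 44.3, 48.8 and 48.7 in vehicle and 39.8, 42.7 and 39.7 in DOX, a log2 fold change of -0.21 ± 0.07 (adjusted p = 0.0080) without overlap. Without vehicle replicate 2 the JUNB value was -0.19 and no longer passed (adjusted p = 0.0501).

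FOS held 40.8, 46.1 and 46.8 in vehicle and 33.8, 38.2 and 36.7 in DOX. The groups stood apart, at a log2 fold change of -0.30 ± 0.07 (adjusted p = 0.0010). FOSL2, with the highest mean over a promoter region, held 103, 103 and 97.7 in vehicle and 79.9, 86.0 and 87.0 in DOX. It fell by 0.26 on the log2 scale (SE 0.06, adjusted p = 0.00076), with no overlap. The region around its downstream starts (chromosome 2, 28394701 to 28396700) held 11.4, 15.2 and 15.5 in vehicle against 7.31, 9.83 and 7.61 in DOX, a log2 fold change of -0.76 ± 0.16 (adjusted p = 9.09e-05).

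The other 4 promoters did not pass the test. FOSL1 held 41.7, 45.1 and 42.0 in vehicle and 38.3, 46.4 and 43.9 in DOX, with a log2 fold change of 0.00 ± 0.09 (adjusted p = 0.99). BATF3 was as flat, at -0.02 ± 0.09 (adjusted p = 0.88), and its groups overlapped like those of FOSL1. ATF3 had -0.12 ± 0.07 (adjusted p = 0.17), although its DOX libraries (65.8, 65.0 and 65.6) lay just under its vehicle libraries (75.7, 71.2 and 66.1). FOSB had a positive value, 0.22 ± 0.10 (adjusted p = 0.0503), and 1 of its DOX libraries overlapped the vehicle range. FOSB passed without vehicle replicate 3 (0.25, adjusted p = 0.0486) or DOX replicate 3 (0.30, adjusted p = 0.0242).

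These directions depend on the scale, because the median of all DU-145 promoters moved from -0.07 with library sums to -0.26 with TMM factors, -0.32 with DESeq2 size factors, -0.12 with loess offsets and 0.25 with a GC trend removed. With the GC trend removed, the log2 fold changes of JUN, JUNB, JUND, FOS and FOSL2 turned to 0.07, 0.24, 0.17, 0.11 and 0.20, and 6 member promoter regions were then higher (FOSB, FOSL1, BATF3, ATF3, JUNB and FOSL2) and 1 lower, that around the downstream starts of FOSL2 (-0.84). With loess offsets they were -0.03, 0.16, -0.06, 0.0043 and 0.16, and with DESeq2 size factors 9 promoter regions were lower, ATF3, BATF3 and FOSL1 being the additional ones (-0.36, -0.26 and -0.25). Relative to the promoter median of the same scale, the main values were -0.30 for JUN, -0.14 for JUNB, -0.22 for JUND, -0.23 for FOS and -0.19 for FOSL2, and over all alternatives JUN ranged from -0.36 to 0.09.

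The change was not even along the promoter regions. Each region was divided at 500 bp on both sides of the canonical start, a division chosen after the values were seen and given without a test of its own, while the calls of single bins come from the fit over all bins of the table (22.8% of all DU-145 bins were higher and 11.8% lower). At FOS, 24 of the 25 bins that lie over 500 bp downstream of the start were lower with DOX, whereas none of the 10 bins at the start and none of the 16 upstream bins was lower. The downstream stretch runs from 522 to 2922 bp and thus covers most of the FOS gene, which is 3403 bp long. It held 16.7, 21.4 and 19.4 in vehicle and 5.97, 7.34 and 6.51 in DOX, a log2 ratio of -1.54. The start held 64.3, 70.8 and 72.0 in vehicle and 60.01, 64.1 and 64.7 in DOX, a smaller and overlapping difference. A separate distal region past the end of the gene (75283201 to 75284500) was also lower, from 9.37, 10.2 and 9.69 to 2.95, 4.77 and 3.14, with a log2 fold change of -1.41 ± 0.22 (edgeR adjusted p = 1.23e-06). All 3 vehicle libraries and 1 DOX library had a peak there.

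At JUN, FOSL2 and ATF3 most bins at the start itself were lower. All 10 bins within 500 bp of the JUN start were lower (161, 142 and 132 in vehicle, 123.3, 109 and 112 in DOX), as were 8 of the 20 downstream and 6 of the 15 upstream bins. For FOSL2 all 10 start bins were lower (210, 187 and 170 against 132, 138 and 140), while 0 of the 27 upstream bins were lower and 3 were higher. The start of ATF3 had 8 of 10 bins lower (199, 181 and 176 against 153, 149 and 154), but 13 of its 17 upstream bins were higher (22.9, 23.7 and 17.1 against 32.9, 33.4 and 30.6). The 2 opposite changes of ATF3 lay within 1 region whose sum did not pass the test. JUND had 5 of 10 start bins and 0 of 19 downstream bins lower. JUNB was lower mainly in a run of 10 bins between 2664 and 3564 bp downstream, past the end of its gene of 1830 bp. FOSB had 5 adjacent bins higher, at 1954 to 2354 bp downstream, with bin log2 fold changes of 1.503 to 1.757.

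**Figure D2:**
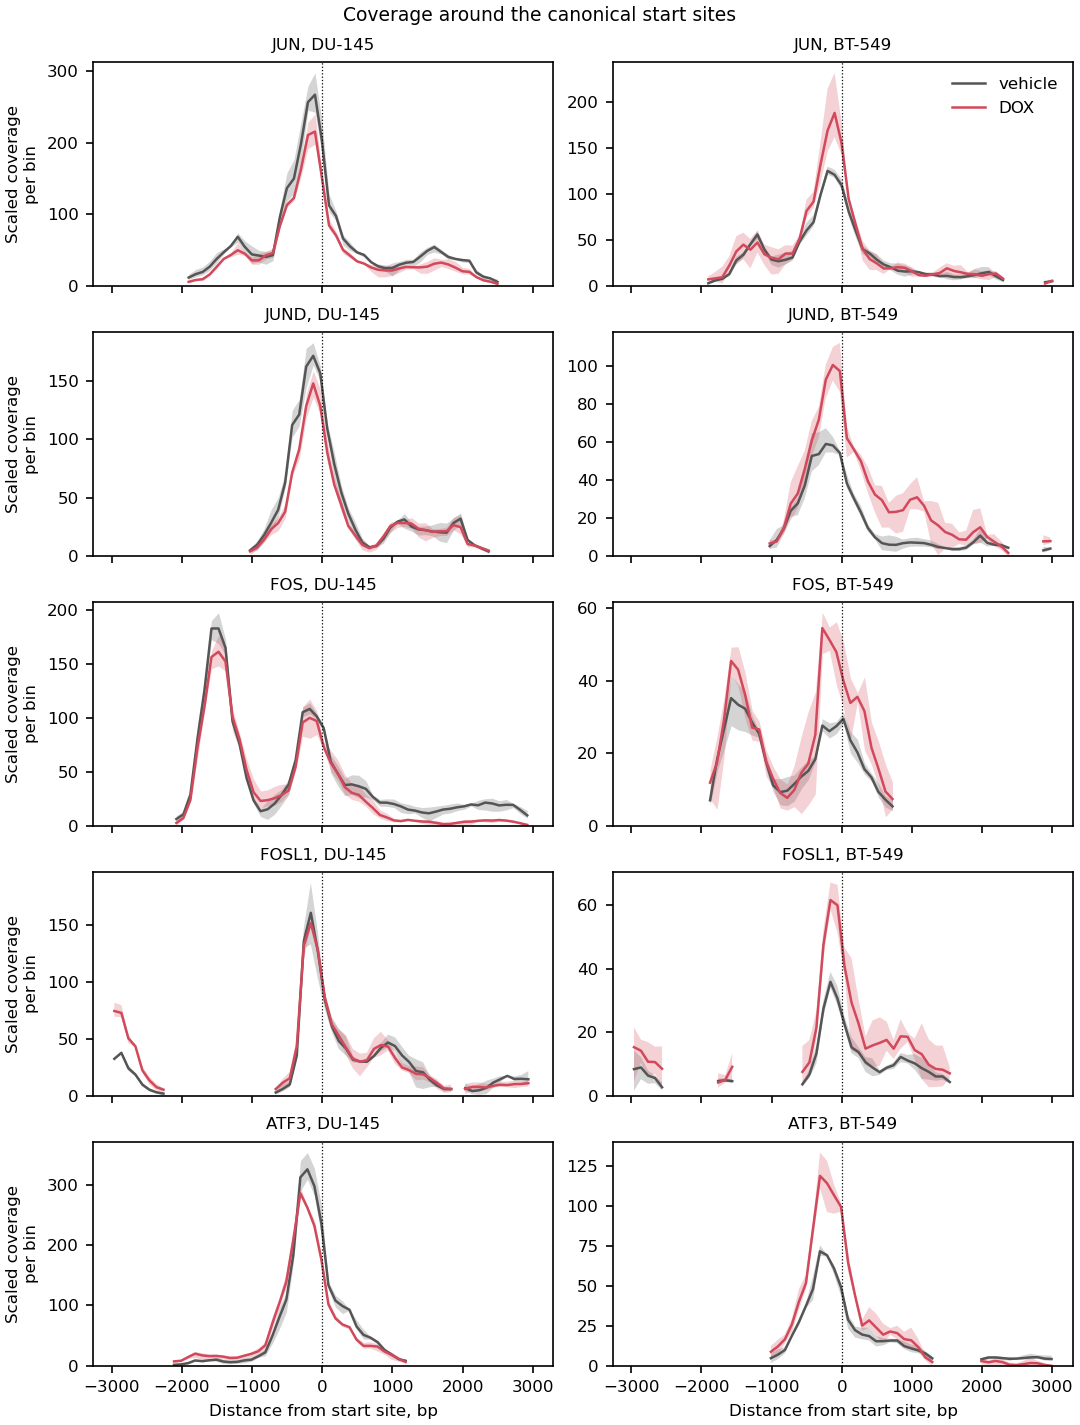
Scaled coverage per 100-bp bin against the distance from the canonical start (bp, positive downstream) for 5 members, with DU-145 on the left and BT-549 on the right. Lines are the mean and shading the range of 3 libraries, and gaps are stretches without bins. In DU-145 the vehicle line of FOS stays above the DOX line along the gene body (19.2 against 6.61 on average downstream of 500 bp), and in BT-549 the DOX line of JUND stays above (16.6 against 6.01).

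In BT-549 the promoters moved the other way. Of 9 members, 7 had a more accessible promoter with DOX (JUN, JUNB, JUND, FOS, FOSB, FOSL1 and ATF3), with 2 not called (FOSL2 and BATF3). Counting all 12 member promoter regions, 7 were higher and 1 lower, with a median log2 fold change of 0.33, beside 16.0% higher, 10.2% lower and a median of 0.05 for all BT-549 promoters. Leaving out vehicle replicate 1 lowered the number of member regions of any class that were higher from 16 to 9.

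JUND had the highest rise of all member promoter regions, on chromosome 19 (18279201 to 18282700). It held 17.3, 19.7 and 16.4 in vehicle and 33.2, 32.8 and 29.2 in DOX, a log2 fold change of 0.83 ± 0.10 (edgeR adjusted p = 4.32e-07). The groups were far apart, at 1.78-fold. The gene of JUND is 1929 bp long, and 10 of the 19 bins over 500 bp downstream of its start were higher, with 6.40, 6.83 and 4.79 in vehicle and 18.6, 17.5 and 13.5 in DOX, a log2 ratio of 1.46. At the start 8 of 10 bins were higher, with a log2 ratio of 0.75, and upstream 0 of 6. A run of 18 adjacent higher bins had its first bin at -228 bp and its last at 1472 bp from the start, against 5.03% of all BT-549 bins higher and 5.91% lower.

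FOSL1 held 12.7, 13.0 and 12.6 in vehicle and 19.9, 22.9 and 22.6 in DOX, a log2 fold change of 0.77 ± 0.13 (adjusted p = 3.67e-05). ATF3 held 25.02, 23.8 and 26.3 in vehicle and 40.5, 39.1 and 42.7 in DOX, a log2 fold change of 0.71 ± 0.10 (adjusted p = 3.55e-06). Neither gene's groups overlapped. In both, the bins that passed were at the start (5 of 10 at FOSL1 and 7 of 10 at ATF3) and none was downstream. Section means rose outside the start as well, without overlap. FOSL1 downstream went from 8.40 to 13.4 (log2 ratio 0.67) and ATF3 upstream from 17.6 to 25.9 (0.56). ATF3 downstream overlapped (0.30). A TSS of ATF3 further downstream (212613401 to 212614000) was not called, at 5.36 in vehicle and 5.56 in DOX.

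FOSB held 11.8, 13.8 and 12.4 in vehicle and 21.6, 20.3 and 15.7 in DOX (log2 fold change 0.59 ± 0.13, adjusted p = 0.00080). FOS held 20.2, 20.1 and 17.5 in vehicle and 25.6, 26.96 and 25.4 in DOX (0.43 ± 0.11, adjusted p = 0.0034). In these immediate early genes all DOX libraries exceeded all vehicle libraries, and 5 of the 10 start bins of each were higher. JUNB held 20.1, 22.1 and 17.2 in vehicle and 23.5, 28.7 and 25.9 in DOX (0.40 ± 0.10, adjusted p = 0.0026), with 13 of its 28 downstream bins and 0 of its 10 start bins higher. JUN had the smallest of the 7 changes, from 32.3, 32.4 and 38.2 to 42.7, 41.4 and 40.1 (0.27 ± 0.09, adjusted p = 0.019), and 4 of its 10 start bins were higher. The JUN call was lost without vehicle replicate 1 (0.23, adjusted p = 0.14), vehicle replicate 2 (0.23, adjusted p = 0.093) or DOX replicate 1 (0.25, adjusted p = 0.052).

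FOSL2 did not pass, with 34.1, 33.0 and 35.7 in vehicle and 31.7, 33.3 and 28.7 in DOX (-0.13 ± 0.09, adjusted p = 0.28). A small region 790 bp from a FOSL2 TSS was lower, from 4.85, 4.81 and 6.48 to 2.51, 1.22 and 1.48 (-1.63 ± 0.61, adjusted p = 0.045), a call that was lost with TMM factors (-1.53, adjusted p = 0.060) and without any of vehicle replicates 1, 2 and 3 or DOX replicates 2 and 3 (-1.70, -1.69, -1.49, -1.38 and -1.50, respectively). BATF3 overlapped between the groups (-0.20 ± 0.16, adjusted p = 0.37). Relative to the promoter median of the same scale, the values of JUND, FOSL1 and ATF3 were 0.78, 0.72 and 0.66, and they stayed within 0.58 to 0.89, 0.54 to 0.79 and 0.49 to 0.69 over 16 alternatives each. With a GC trend removed, JUN turned to -0.08, JUNB (0.01), FOS (0.05) and FOSB (0.28) did not pass, and 3 member promoter regions were higher and 2 lower, the latter being FOSL2 (-0.51, edgeR adjusted p = 0.00010) and BATF3 (-0.62, adjusted p = 0.0035). With loess offsets FOSL2 was lower as well (-0.32, adjusted p = 0.0071), and JUN (0.06) and JUNB (0.19) did not pass.

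**Figure D3:**
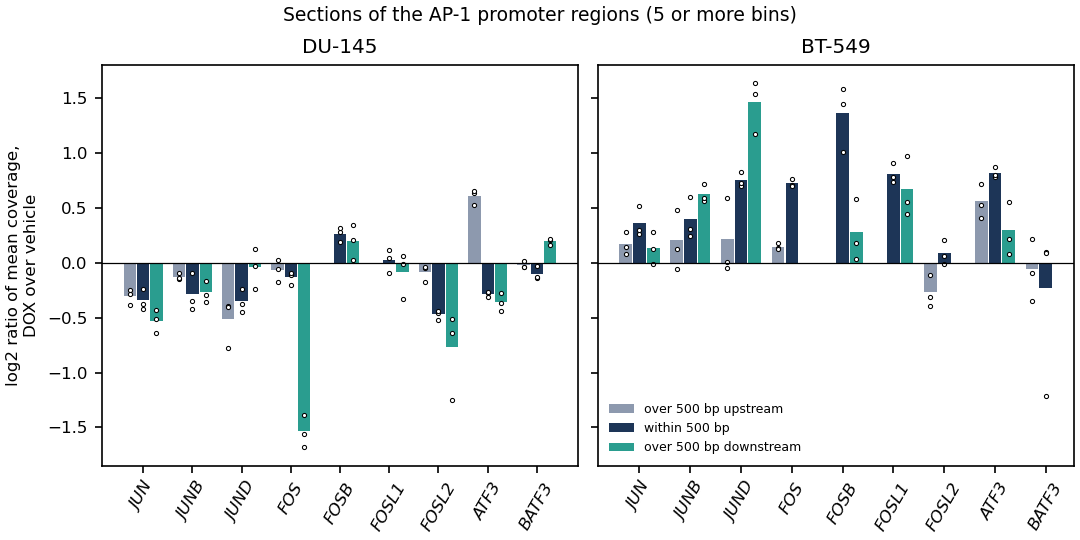
Log2 ratio of mean coverage, DOX over vehicle, in 3 sections of each promoter region with 5 or more bins. Bars are the ratio of the group means and dots each of the 3 DOX libraries over the vehicle mean, from bins upstream of, within 500 bp of and downstream of the canonical start. FOS downstream in DU-145 (-1.54) and JUND downstream in BT-549 (1.46) are the longest bars.

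Away from the promoters in DU-145, 18 of the 46 distal member regions were higher with DOX and 4 lower, with a median log2 fold change of 0.17. Among all distal regions of the line 44.5% were higher and 12.8% lower, with a median of 0.44. Of the 20 promoters of other genes in the window, 4 were higher and 2 lower, beside 18.9% higher and 28.6% lower among all promoters of the line. FOSL1 (7 higher and 0 lower of 12 regions of all classes) and ATF3 (4 higher and 0 lower of 8) held 11 of the 22 higher regions, and JUN (0 higher and 2 lower of 7) and JUNB (0 higher and 1 lower of 7) held none. Over all classes, 22 of the 76 member regions were higher and 12 lower, beside 29363 and 13805 of all 79177 regions of the line.

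ATF3 gained accessibility in intronic sequence upstream of its main promoter. The region on chromosome 1 from 212595701 to 212596800, 11870 bp from the nearest ATF3 TSS, held 16.3, 14.9 and 22.4 in vehicle and 54.3, 49.0 and 48.7 in DOX. All 11 of its bins were higher, with a change of 1.53 ± 0.13 (edgeR adjusted p = 1.19e-11). The peaks of the single libraries had fold enrichments of 18.2, 22.0 and 22.2 in vehicle and of 53.3, 55.7 and 50.9 in DOX. A second intronic region (212600601 to 212601600) held 2.39, 3.88 and 5.43 in vehicle and 12.1, 10.3 and 12.01 in DOX (1.55 ± 0.24, adjusted p = 1.29e-06), and the other higher ATF3 regions, at 212561401 and 212566601 nearer to the upstream start, were higher by 1.73 and 0.52.

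The FOSL1 locus on chromosome 11 opened on both sides of a promoter that itself had a log2 fold change of 0.00. The region from 65911101 to 65913800 held 10.5, 13.1 and 13.0 in vehicle and 28.7, 33.6 and 31.2 in DOX (1.35 ± 0.11, adjusted p = 1.27e-12). Next to it, 65915001 to 65918100 went from 14.1, 15.9 and 14.7 to 26.0, 33.3 and 28.5 (0.97 ± 0.10, adjusted p = 5.95e-10), and 65902601 to 65903800, 2028 bp from a FOSL1 TSS, from 13.1, 13.99 and 14.3 to 28.2, 32.2 and 31.6 (1.16 ± 0.14, adjusted p = 7.94e-09). None of these 3 regions overlapped between groups, which was a condition for naming them. Of all 79177 regions of the line, 47140 did not overlap. A region at 65909701 was higher by 2.10 ± 0.30 (adjusted p = 3.95e-07), and its peak was absent from all 3 vehicle libraries and present in all 3 DOX libraries. Regions were kept if found in at least 3 replicates, so this one entered through the DOX libraries alone. Its peak pattern adds no support to the gain. On the other side, the region over the promoters of FIBP and CCDC85B (65887901 to 65894300), 6088 bp from a FOSL1 TSS, rose from 24.9, 26.4 and 27.7 to 38.7, 46.0 and 43.6 (0.70 ± 0.08, adjusted p = 9.37e-10). Of its 64 bins 36 were higher, and its most covered single bin did not pass (-0.15, edgeR adjusted p = 0.38).

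FOSL2 gained a region 4548 bp from a FOSL2 TSS, in FOSL2-AS1 (chromosome 2, 28386901 to 28387900), from 0.948, 3.08 and 2.88 in vehicle to 11.6, 14.9 and 11.02 in DOX (2.39 ± 0.27, adjusted p = 3.12e-09). FOS gained a region 21126 bp upstream (chromosome 14, 75257101 to 75257700), from 2.68, 1.71 and 1.69 to 10.7, 18.1 and 14.9 (2.85 ± 0.31, adjusted p = 1.09e-09), again with a peak in 0 of 3 vehicle and 3 of 3 DOX libraries. Vehicle coverage was low at both sites. The FOS region thus entered the set of regions through the DOX libraries alone, and its peak pattern adds no support to the gain. Chosen after their values were seen because they were the highest distal values of the 2 BATF genes, a region at 212693001 near BATF3 went from 1.07, 0.389 and 2.82 to 10.96, 9.73 and 10.0 (3.10 ± 0.53, adjusted p = 5.5e-06) and one at 75523801, 1241 bp from a BATF TSS, from 0.801, 1.32 and 0.692 to 5.64, 6.09 and 4.94 (2.43 ± 0.50, adjusted p = 0.00010). Named likewise after its values were seen, a JUN region 4747 bp from a JUN TSS (58779001 to 58779300) was lower, from 6.19, 4.57 and 8.57 to 0.657, 2.60 and 2.13 (-1.70 ± 0.51, adjusted p = 0.0048).

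Windows of 200 bases around the strongest bin are shown for 3 of the regions that opened in DU-145, because each holds a TRE (hg38, plus strand, TRE in capitals on either strand).
ATF3 intron, chr1:212601051-212601250: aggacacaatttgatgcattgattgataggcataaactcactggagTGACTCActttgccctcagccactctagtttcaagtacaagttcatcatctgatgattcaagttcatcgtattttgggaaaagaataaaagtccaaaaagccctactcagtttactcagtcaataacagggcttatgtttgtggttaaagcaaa
FOSL2 upstream, chr2:28387151-28387350: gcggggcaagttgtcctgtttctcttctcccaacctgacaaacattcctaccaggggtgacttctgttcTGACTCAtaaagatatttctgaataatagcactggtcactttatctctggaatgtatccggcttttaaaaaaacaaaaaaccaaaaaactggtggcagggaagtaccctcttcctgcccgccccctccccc
FOSL1 flank, chr11:65915751-65915950: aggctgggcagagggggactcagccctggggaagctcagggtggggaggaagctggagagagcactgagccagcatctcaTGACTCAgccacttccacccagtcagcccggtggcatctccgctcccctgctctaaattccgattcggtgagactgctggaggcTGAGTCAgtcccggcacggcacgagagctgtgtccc
The FOSL1 window holds 2 matches, 1 on each strand, and those of the other 2 genes hold 1. A TRE stood in 22 of the 46 distal member regions of DU-145 (47.8%), beside 43.5% of all distal regions of the line, with median lengths of 600 bp for both. Among the member distal regions that were higher, 9 of 18 held a TRE, beside 54.2% of all higher distal regions. Of the lower ones 3 of 4 held it, beside 35.6% of all lower distal regions. Of those not called it was 10 of 24, beside 34.6% of all that were not called. The strongest ATF3 region (212595701 to 212596800) holds a TRE outside the 200 bases around its highest bin.

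**Figure D4:**
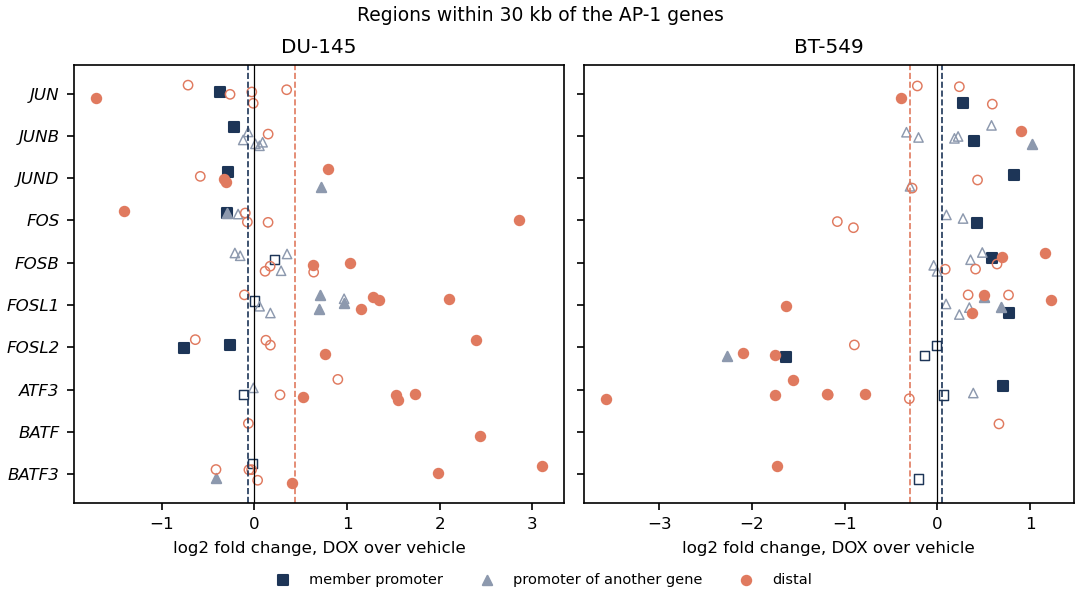
Log2 fold change, DOX over vehicle, of every accessible region within 30 kb of the 10 members, with DU-145 on the left and BT-549 on the right. Squares are member promoters, triangles promoters of other genes and circles distal regions, filled where the edgeR adjusted p was under 0.05, and dashed lines mark the medians of all promoter and all distal regions of the line. Filled circles reach 3.10 (BATF3) in DU-145 and -3.57 (ATF3) in BT-549. With a GC trend removed, the mostly small values of the DU-145 squares changed sign, with the following exceptions. FOSB stayed positive, and the region around the downstream starts of FOSL2 stayed lower.

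Away from the promoters in BT-549, 10 of the 32 distal member regions were lower with DOX, 6 higher and 16 not called, with a median of -0.24, beside 23.4% lower, 9.53% higher and a median of -0.29 among all distal regions of the line. Among the 20 promoters of other genes, 3 were higher and 1 lower, beside 16.0% higher and 10.2% lower among all promoters of the line. ATF3 (5 lower of 7 distal regions) and FOSL2 (2 lower of 3) held 7 of the 10 lower distal regions.

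At FOSL2, 3 neighbouring regions downstream of the gene on chromosome 2 lost accessibility. The region from 28421901 to 28424200 held 9.09, 10.2 and 10.2 in vehicle and 0.979, 1.83 and 3.83 in DOX (-2.09 ± 0.27, edgeR adjusted p = 8.96e-07, and -2.803 without DOX replicate 3). That from 28418701 to 28421500 held 8.49, 8.77 and 8.05 against 3.77, 1.32 and 2.44 (-1.75 ± 0.24, adjusted p = 1.92e-06). The third, 28424301 to 28425200 (the promoter of another gene) and 28790 bp from a FOSL2 TSS, went from 3.80, 6.31 and 6.62 to 1.28, 0.832 and 1.32 (-2.26 ± 0.45, adjusted p = 0.00032). Of its 9 bins 1 was lower, and its most covered single bin did not pass (-1.19, edgeR adjusted p = 0.34). Each of the 3 regions had a peak in all 3 vehicle libraries and in 0 of the 3 DOX libraries. A region had to be found in at least 3 replicates of either group to be kept. These 3 thus entered the set of regions through the vehicle libraries alone, and their peak pattern adds no support to the loss. The DOX libraries of this line were the shallowest, so a peak count alone is no measure of loss, and the scaled coverage of each library is the value to read.

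At ATF3, which gained in its intron in DU-145, the same stretch, named for that reason, was lower in BT-549 (212595901 to 212596800, 10.9, 8.10 and 8.20 against 5.84, 3.57 and 6.20, -0.78 ± 0.29, adjusted p = 0.042). Downstream of the gene, the region from 212620801 to 212623400 went from 7.82, 6.68 and 6.60 to 3.48, 1.44 and 1.45 (-1.75 ± 0.27, adjusted p = 1.12e-05). One at 212635201, 20023 bp from an ATF3 TSS, went from 8.24, 9.46 and 5.79 to 0.00, 0.00 and 1.54 (-3.57 ± 0.69, adjusted p = 0.00025). The last value rests on DOX replicate 3, the 1 DOX library with coverage above 0, and no fold is given without it. BATF3 lost the TRE-containing region 19309 bp away (212667401 to 212668200), from 16.0, 13.0 and 19.3 to 4.83, 6.14 and 3.81 (-1.73 ± 0.28, adjusted p = 2.93e-05), and FOSL1 a region at 65927801 (-1.63 ± 0.39, adjusted p = 0.0019). The ATF3 and FOSL1 regions named here had peaks in vehicle libraries only, and thus also entered through that group alone. In the most covered single bin, the ATF3 region at 212620801 (-1.28, edgeR adjusted p = 0.15) and the FOSL1 region (-1.59, adjusted p = 0.078) did not pass.

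The gains in BT-549 were around JUNB, FOSB and FOSL1. A region at the promoter of HOOK2, 15486 bp from the JUNB TSS (chromosome 19, 12775101 to 12776000), went from 10.0, 11.2 and 6.96 to 17.8, 24.1 and 15.9 (1.02 ± 0.23, adjusted p = 0.0011). Its most covered single bin did not pass (0.81, edgeR adjusted p = 0.078). In the gene ERCC1, 24095 bp from a FOSB TSS, the region from 45443001 to 45443900 went from 6.95, 7.99 and 8.54 to 19.2, 17.4 and 16.1 (1.16 ± 0.22, adjusted p = 0.00022). The region over the promoters of C11orf68 and DRAP1 (chromosome 11, 65918301 to 65920300) in the FOSL1 window went from 16.0, 21.3 and 17.3 to 27.9, 27.9 and 31.9 (0.69 ± 0.13, adjusted p = 0.00014), a call that was lost with the GC trend removed (0.26, adjusted p = 0.13) and in its most covered single bin (0.41, adjusted p = 0.16). No vehicle library reached a DOX library in any of the 3, which was a condition for naming them. Of all 46298 regions of the line, 20009 did not overlap between groups. Of the 6 higher distal member regions 5 held a TRE, beside 3 of the 10 lower ones, and of all distal regions of BT-549 41.8% of the higher and 42.9% of the lower held one.

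Between the lines in vehicle, accessibility was compared on the shared runs of bins, with library sizes summed over shared bins, and the copy number of a locus and its accessibility cannot be told apart. Of the 11 shared member promoter regions, 5 were higher in DU-145 and 2 in BT-549, beside 36.0% and 38.4% of all shared promoters. ATF3 (0.71 ± 0.08, edgeR adjusted p = 6.61e-10), FOSL1 (0.69 ± 0.10, adjusted p = 6.63e-08), FOS (0.58 ± 0.08, adjusted p = 1.78e-07), FOSL2 (0.42 ± 0.07, adjusted p = 9.43e-07) and BATF3 (0.31 ± 0.11, adjusted p = 0.013) were higher in DU-145. The ATF3 promoter held 84.2, 79.3 and 74.4 in DU-145 and 48.6, 46.0 and 51.2 in BT-549, and that of FOSL1 37.5, 40.7 and 37.9 against 23.8, 24.4 and 23.7, with no overlap. JUN was higher in BT-549, at 60.5, 60.5 and 72.0 against 52.9, 52.1 and 48.6 in DU-145 (-0.33 ± 0.07, adjusted p = 0.00018), as was FOSB (-0.41 ± 0.10, adjusted p = 0.00049). JUNB (0.04 ± 0.08) and JUND (0.04 ± 0.08) overlapped between the lines.

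The calls of JUN and FOSB depend on the scale, since the promoter median moved from -0.04 to 0.23 with TMM factors, where JUN was -0.06 (adjusted p = 0.51), FOSB -0.14 (adjusted p = 0.21) and 8 promoter regions were higher in DU-145 and 0 in BT-549, JUNB (0.31, adjusted p = 0.00057) and JUND (0.31, adjusted p = 0.0015) among them. With a GC trend removed, an alternative added after the data were seen, the median was -0.29, JUNB (-0.34, adjusted p = 0.00020) and JUND (-0.42, adjusted p = 5.13e-05) were higher in BT-549, BATF3 (-0.17, adjusted p = 0.18) turned and FOSL2 (0.04, adjusted p = 0.58) did not pass. With loess offsets, added likewise, JUNB was higher in BT-549 (-0.18, adjusted p = 0.042). The BATF3 call was lost without BT-549 vehicle replicate 1 (0.20, adjusted p = 0.15) or DU-145 vehicle replicate 2 (0.25, adjusted p = 0.094). The values of ATF3, FOSL1 and FOS were positive and past the threshold in all 16 alternatives of test, scale and libraries.

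Away from the member promoters, more of the called regions were higher in BT-549 than in DU-145, as among all distal regions of the comparison. Of 25 shared distal member regions, 14 were higher in BT-549 and 4 in DU-145, with a median of -0.70, beside 57.8% and 18.0% of all shared distal regions and a median of -0.72. Over the promoters of other genes the numbers were 10 and 4 of 17, beside 38.4% and 36.0% of all shared promoters. The widest gap toward DU-145 lies 19347 bp from a JUN TSS (chromosome 1, 58764301 to 58764700), in an intron of the long noncoding gene ENSG00000283445, with 109, 112 and 90.6 in DU-145 and 13.8, 8.97 and 11.4 in BT-549 (3.19 ± 0.18, adjusted p = 2.06e-17). A neighbouring JUN region showed the reverse (58755001 to 58756200, 45.4, 38.1 and 43.1 against 89.4, 89.9 and 87.6, -1.08 ± 0.09, adjusted p = 2.35e-12), and so did one 3547 bp from a JUN TSS (58779601 to 58780500, -1.68 ± 0.19, adjusted p = 1.30e-09). The JUN locus thus held regions higher in each line.
JUN distal, higher in DU-145, chr1:58764451-58764650: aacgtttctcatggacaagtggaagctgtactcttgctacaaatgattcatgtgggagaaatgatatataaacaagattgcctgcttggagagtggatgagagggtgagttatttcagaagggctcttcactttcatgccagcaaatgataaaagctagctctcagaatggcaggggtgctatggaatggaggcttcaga
JUN distal, higher in BT-549, chr1:58755451-58755650: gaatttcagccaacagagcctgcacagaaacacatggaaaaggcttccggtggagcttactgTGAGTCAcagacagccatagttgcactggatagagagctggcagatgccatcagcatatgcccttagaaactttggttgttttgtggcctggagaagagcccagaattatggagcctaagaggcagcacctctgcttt
These 200 bases around the strongest bins are shown because the pair differ in direction, and the one higher in BT-549 holds a TRE (capitals).

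The widest contrast toward BT-549 was at the promoter of IQCN, 5329 bp from a JUND TSS (chromosome 19, 18274501 to 18275600), with 5.54, 5.79 and 8.45 in DU-145 and 53.3, 47.7 and 39.7 in BT-549 (-2.86 ± 0.16, edgeR adjusted p = 3.69e-17). FOSL2 had 4 distal runs, all higher in BT-549, of which 28419701 to 28420200 was at -2.49 ± 0.25 (adjusted p = 6.42e-11), 28420501 to 28421100 at -2.11 ± 0.24 (adjusted p = 1.84e-09) and 28422201 to 28424200 at -1.99 ± 0.18 (adjusted p = 3.33e-12). These are the regions that were lower with DOX in BT-549. BATF3 had one at 212667501 (-2.49 ± 0.23, adjusted p = 6.42e-12), which DOX also lowered in BT-549. At FOSL1, the runs at 65889701 (-1.25 ± 0.09, adjusted p = 1.90e-14) and 65915001 (-0.98 ± 0.12, adjusted p = 1.07e-08) were higher in BT-549 in vehicle, and both lie in regions that gained in DU-145 with DOX. The vehicle libraries enter both kinds of comparison, so these values are not independent of each other.

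The difference between the lines in their response to DOX was tested as an interaction over the 12 libraries (positive where the log2 change was higher in DU-145). Among the 11 shared member promoters 6 differed, each with a higher change in BT-549, beside 32.0% of all shared promoters in either direction. Of all 16287 shared promoters, 2248 had a higher change in DU-145 and 2967 in BT-549. JUND differed most (-0.94 ± 0.13, edgeR adjusted p = 1.05e-07), then ATF3 (-0.72 ± 0.12, adjusted p = 3.86e-06), FOSL1 (-0.60 ± 0.15, adjusted p = 0.0011), JUN (-0.46 ± 0.11, adjusted p = 0.00080), JUNB (-0.42 ± 0.12, adjusted p = 0.0036) and FOS (-0.36 ± 0.13, adjusted p = 0.023). FOSB (-0.21), FOSL2 (0.06) and BATF3 (0.39) did not pass. These calls depend on the scale. With TMM and with DESeq2 size factors the promoter median of the difference moved from -0.05 to -0.26 and -0.34, and 7 and 8 promoter regions were lower, now with FOSB (-0.43, adjusted p = 0.036, and -0.50, adjusted p = 0.013). With a GC trend removed, added after the data were seen, the median was 0.30, JUN (0.01), JUNB (0.07) and FOS (0.14) turned and did not pass, ATF3 (-0.20, adjusted p = 0.18) and FOSL1 (-0.09, adjusted p = 0.65) did not pass, and JUND stayed lower (-0.42, adjusted p = 0.0073). FOSL2 (0.55, adjusted p = 7.46e-05) and BATF3 (0.91, adjusted p = 0.00046) then had a higher change in DU-145. With loess offsets, added likewise, the median was -0.11, JUND (-0.68), ATF3 (-0.42) and FOSL1 (-0.47) passed, JUN (-0.08), JUNB (-0.03) and FOS (-0.11) did not, and FOSL2 was higher in DU-145 (0.46, adjusted p = 0.00052). Of the 6, JUND alone passed with the same sign on all of these scales. BATF3 also passed without BT-549 DOX replicate 1 (0.58, adjusted p = 0.030). FOS lost its call without BT-549 vehicle replicate 3 (-0.30, adjusted p = 0.068), DU-145 vehicle replicate 2 (-0.35, adjusted p = 0.0505), DU-145 vehicle replicate 3 (-0.31, adjusted p = 0.075) or DU-145 DOX replicate 1 (-0.32, adjusted p = 0.060).

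On the scale of all 12 libraries, the ATF3 promoter of DU-145 stood at 69.9 ± 4.32 with vehicle and 67.3 ± 1.86 with DOX, and that of BT-549 at 42.8 ± 2.29 and 67.5 ± 3.595 (SD, n = 3 each). The lines were thus apart in vehicle and overlapped in DOX. FOSL1 followed the same pattern, with 34.1, 36.9, 21.1 and 34.7 in that order, whereas JUND was level in vehicle (30.3 and 29.4) and apart in DOX (26.98 ± 1.498 in DU-145 and 50.5 ± 3.33 in BT-549). The JUN promoter was also further apart in DOX (38.0 and 65.9) than in vehicle (45.1 and 56.7).

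**Figure D5:**
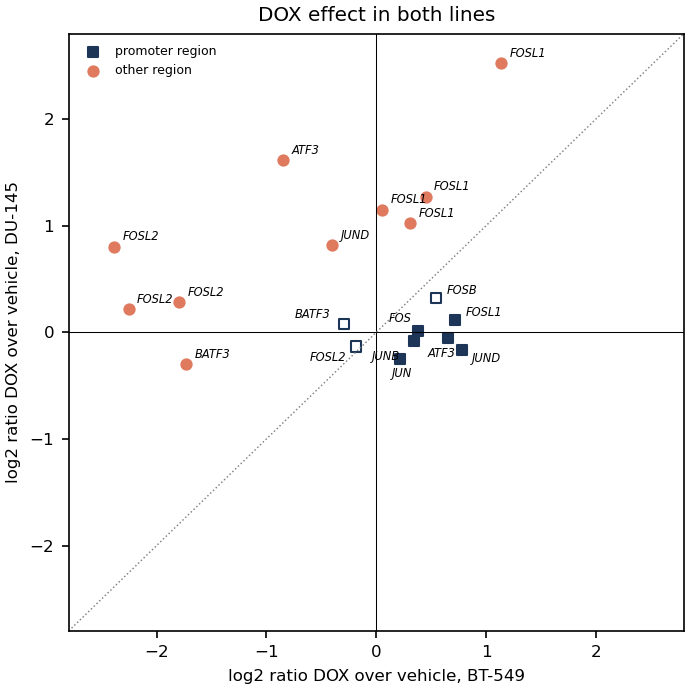
Log2 ratio of mean coverage, DOX over vehicle, in BT-549 (x axis) and DU-145 (y axis) for the promoter region of 9 members (squares) and the distal and other regions named for the difference (circles), on shared bins. Filled symbols passed the interaction test and the dotted line marks equal change. Filled squares lie to the lower right of the line, led by JUND (0.78 and -0.17), although JUN, JUNB and FOS turned sign with a GC trend removed, and all circles to the upper left, led by a FOSL2 region (-2.38 and 0.80).

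In distal regions the called differences were mostly of the opposite sign, as among all shared distal regions. Of 25 shared distal member regions 11 had a higher change in DU-145 and 2 in BT-549 (median 0.54). Of all 16384 shared distal regions, 6667 had a higher change in DU-145 and 729 in BT-549 (median 0.70), or 45.1% in either direction. Over the promoters of other genes the numbers were 2 and 2 of 17, beside 2248 and 2967 of all 16287 shared promoters. The 3 FOSL2 runs had differences of 3.39 ± 0.57 (adjusted p = 6.21e-06), 2.43 ± 0.35 (adjusted p = 4.89e-07) and 2.02 ± 0.47 (adjusted p = 0.00067), and the ATF3 intron one of 2.47 ± 0.30 (edgeR adjusted p = 9.70e-09). The first of them was 4.85 without BT-549 DOX replicate 1 and the second 3.12 without BT-549 DOX replicate 3, so the sizes rest in part on single libraries. In the ATF3 intron, the log2 ratio was 1.62 in DU-145 and -0.85 in BT-549, opposite in sign with a call in both lines. At FOSL1, the runs starting at 65889701, 65911101, 65912801 and 65915001 had differences of 1.10, 0.83, 1.38 and 0.72, and rose in DU-145 by 1.15, 1.27, 2.53 and 1.02 against 0.05, 0.45, 1.14 and 0.31 in BT-549. The JUND neighbour IQCN differed by 1.25 ± 0.25 (adjusted p = 0.00011). The BATF3 run at 212667501 differed by 1.43 ± 0.44 (adjusted p = 0.0091), a call lost without DU-145 DOX replicate 2 (1.10, adjusted p = 0.068) and with loess offsets (0.77, adjusted p = 0.20). The FOSL1 run at 65912801 lost its call with loess offsets (0.75, adjusted p = 0.17) and that at 65915001 with DESeq2 size factors (0.43, adjusted p = 0.057).

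The promoters of other genes of the pathway were read from 3 lists written from general knowledge. Among 24 partner and related bZIP genes, 23 had a promoter region in DU-145, of which 0 were higher and 11 lower with DOX (median -0.32), beside 18.9% higher, 28.6% lower and a median of -0.07 for all promoters of the line. The lower genes were led by CREB1, a CRE-binding factor, from 67.7 ± 5.10 to 31.0 ± 0.58 (SD, n = 3; log2 fold change -1.13 ± 0.08, edgeR adjusted p = 5.73e-14). BACH1, a heme-regulated repressor (-0.88), NFE2L1, a regulator of proteasome genes (-0.62), and CREM, a relative of CREB1 (-0.60), followed. In BT-549, 6 of 24 were higher and 4 lower (median 0.09), beside 16.0% and 10.2% of all promoters (median 0.05). ATF4, the integrated stress response factor (0.78 ± 0.12, adjusted p = 1.97e-05), and its target DDIT3 (0.55) were higher, whereas BACH2 (-0.66) and CREB5 (-0.67) were lower. In vehicle, BACH2 (135 against 16.7, log2 -2.99) and CREB5 (109 against 20.7, log2 -2.40) were also the genes with the widest gap toward BT-549 among those named, and NFE2L1 was higher in DU-145 (1.29).

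Of 22 kinases, phosphatases and serum response factors upstream of AP-1, 2 were higher and 11 lower in DU-145 (median -0.22), beside 18.9% and 28.6% of all promoters. ELK1 (-0.63) and ELK4 (-0.62), ETS factors that bind with SRF at the FOS promoter, and the MAP kinase phosphatases DUSP5 (-0.46) and DUSP10 (-0.36) were the lower genes with the smallest adjusted p. In BT-549 9 were higher and 0 lower (median 0.28), beside 16.0% and 10.2% of all promoters, led by MAP2K7, an activator of JNK, from 13.0 ± 2.92 to 37.3 ± 4.01 (1.52 ± 0.14, edgeR adjusted p = 3.46e-09), with MAP2K4, the other JNK activator (0.78), DUSP4 (0.52) and FBXW7, which targets JUN for degradation (0.48). Of the 22 genes 8 were higher in DU-145 and 8 in BT-549 in vehicle, beside 36.0% and 38.4% of all shared promoters. DUSP10 (0.76) was higher in DU-145, and DUSP4 (-0.88), FBXW7 (-0.96) and COPS5 (-0.71) were higher in BT-549.

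Of 24 textbook AP-1 target genes, 21 had a promoter region in DU-145, with 4 higher and 4 lower (median 0.03), beside 18.9% and 28.6% of all promoters, so the share of higher targets was close to that of the line. ITGA5, an integrin subunit, went from 7.25 ± 1.12 to 47.0 ± 1.78 (2.67 ± 0.13, edgeR adjusted p = 9.61e-18) and MMP3, a matrix metalloprotease, from 1.65 ± 1.23 to 13.0 ± 3.04 (2.93 ± 0.38), while VEGFA (-0.46) and AREG (-0.60), both growth factors, were lower. In BT-549, 16 had one, with 3 higher and 2 lower (median -0.04), beside 16.0% and 10.2% of all promoters. The urokinase receptor PLAUR (1.09 ± 0.12, adjusted p = 3.93e-08) and S100A10 (0.55) were higher and the cytokine IL6 (-0.92) and the protease inhibitor TIMP1 (-1.37) lower. Of the 15 shared targets in vehicle, beside the same 36.0% and 38.4%, 7 were higher in DU-145, among them CXCL8 (1.204), PLAUR (0.77) and PLAU (0.69), and 4 in BT-549, with IL6 at 95.0 in BT-549 and 28.9 in DU-145 (-1.70 ± 0.09). The directions of the lists were not recomputed without the GC trend in any of the 3 comparisons. Its removal moved the median of all promoters from -0.07 to 0.25 in DU-145 and from 0.05 to -0.18 in BT-549. Between the lines in vehicle the median moved from -0.04 to -0.29.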

How the data were processed

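ATAC-seq libraries of DU-145 and BT-549 cells were compared, 3 per group. Per the paper's methods, the authors used bwa-mem for alignment (GRCh38) and Picard to take out duplicates, called peaks per replicate with MACS2 (version 2.2.7.1 in the submitters' processing notes, which also name MACS3), merged them, kept regions found in at least 3 replicates, divided these into 100-bp bins and averaged coverage per bin. The deposited bin values are such estimated counts of coverage, not whole and not normalized. The deposited peak lists give the fold enrichment over background and its −log10 p and q, of which the fold enrichment of peaks over member regions was used here.

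Bins within 30 kb of a GENCODE v44 TSS of a member were taken, and adjacent bins were summed to regions and rounded. Regions whose summed value reached 10 in the libraries compared were tested with edgeR 4.0.16 (R 4.3.3; quasi-likelihood, robust), library size being the column sum (for the lines, the sum over the 321392 bins of both tables), with Benjamini-Hochberg adjustment over all regions. The SE was derived from the F statistic. Printed values are mean coverage per bin scaled to the mean library sum. The steps were tested on simulated data. Alternatives used DESeq2 1.42.0, limma 3.58.1, TMM factors, DESeq2 size factors, loess offsets, removal of a GC trend, thinning, single bins, other windows and cutoffs, a replicate block and leaving out each library. For the comparisons of the lines, the GC and loess alternatives were added after the data were seen.

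Named were the main promoter region of each member, other member promoters if called, the 10 other regions per comparison with the smallest adjusted p among those called without overlap, and up to 4 genes per list. Exceptions are marked as chosen after their values were seen. Members and lists were chosen with earlier results of these data known. The replicates are called biologically independent in the paper's methods. Adjacent bins share fragments. Summed coverage is not a number of reads, so no counting interval was given.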

Additional observations from a re-analysis of the deposited data

Results flagged for a closer look

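The response to DOX differed between the lines, by the edgeR interaction test with Benjamini-Hochberg adjustment, in 16 of the named regions (log2 change in DU-145 minus that in BT-549). In the promoters it was lower in DU-145, by differences of -0.94 for JUND, -0.72 for ATF3, -0.60 for FOSL1, -0.46 for JUN, -0.42 for JUNB and -0.36 for FOS. With a GC trend removed JUND alone of these 6 passed, and JUN, JUNB and FOS turned sign. Away from the promoters the named regions were chosen by this same test, and in each of them the change was higher in DU-145. Of all 25 shared distal member regions, 11 were called with a higher change in DU-145 and 2 with a lower one. Of the 17 promoters of other genes the numbers were 2 and 2. Among all 32671 shared regions, 8915 had a higher change in DU-145 and 3696 a lower one. At FOSL2 the differences were 3.39 at 28419701, 2.43 at 28422201 and 2.02 at 28420501. The ATF3 intron at 212595901 had 2.47, the BATF3 run at 212667501 had 1.43 and the IQCN promoter near JUND had 1.25. At FOSL1 they were 1.10 at 65889701, 0.83 at 65911101, 1.38 at 65912801 and 0.72 at 65915001. The BT-549 DOX libraries, which enter each of these values, were the shallowest of the series, and the part of depth in the differences was not tested.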

How the results depend on the processing

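Counts of member regions moved with several settings. With the GC trend removed, DU-145 had 42 higher and 5 lower (22 and 12 in the report) and BT-549 7 higher (16), and the difference between the lines was lower in 4 regions (10). In DU-145 the lower count was 19 with TMM factors, 25 with DESeq2 size factors and 21 with the DESeq2 Wald test. Single bins gave 231 higher and 131 lower in DU-145 and 86 and 52 in BT-549. A fold change of at least 2 left 13 higher and 2 lower in DU-145, 3 higher in BT-549, 2 and 13 between the lines in vehicle, and 8 and 1 for the difference. The cutoffs of the study left 10 higher and 1 lower in DU-145 and 3 higher in BT-549. A window of 15 kb left 4 lower in BT-549, 12 lower between the lines and 8 higher for the difference, as fewer regions were counted. With DESeq2 size factors the difference was lower in 16 regions (10). Over all regions, the calls of DU-145 went from 29363 higher and 13805 lower to 23745 and 20167 with TMM factors, those of BT-549 from 5642 and 8329 to 7340 and 6845, and those between the lines from 8817 and 15715 to 11645 and 12131.

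Leaving out 1 library gave 19 to 24 higher and 9 to 13 lower regions in DU-145, 9 to 16 and 10 to 12 in BT-549 (9 without BT-549 vehicle replicate 1), 11 to 14 and 23 to 25 between the lines, and 11 to 14 and 7 to 10 for the difference.

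Promoters that changed sign in DU-145 were, with the GC trend removed, JUN 0.074, ATF3 0.34, BATF3 0.44, FOSL1 0.45, FOS 0.11, JUNB 0.24, JUND 0.17 and FOSL2 0.20. With loess offsets they were ATF3 0.21, BATF3 0.084, FOSL1 0.18, FOS 0.0043, JUNB 0.16 and FOSL2 0.16. FOSB was at -0.023 with DESeq2 size factors or the Wald test and at -0.11 in its single bin. FOSL1, near 0, was at 0.025 with promoter and distal bins scaled apart, 0.0052 with thinning and between -0.061 (without DOX replicate 2) and 0.071 (without DOX replicate 1) when 1 library was left out, and BATF3 between -0.049 and 0.036 (without vehicle replicate 1 and 2). In BT-549 JUN was at -0.082 with the GC trend removed, FOSL2 at 0.052 with bins scaled apart and JUNB at -0.12 in its single bin. Between the lines, JUNB and JUND were at -0.092 and -0.096 with own-table sums, -0.34 and -0.42 with the GC trend removed and -0.18 and -0.11 with loess offsets, and BATF3 was at -0.17 with the GC trend removed. When 1 library was left out they ran from -0.043 and -0.011 (without BT-549 vehicle replicate 3) to 0.126 and 0.116 (without BT-549 vehicle replicate 2), and JUND was at -0.00078 without DU-145 vehicle replicate 3. With the GC trend removed, the differences of JUN, JUNB, FOS and FOSB were 0.011, 0.074, 0.14 and 0.22. For these 2 comparisons the GC and loess settings were chosen after seeing the data. The FOSL2 difference was -0.23 with DESeq2 size factors, -0.16 with TMM factors and -0.20 with bins scaled apart. The cause was not tested.

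Replicate numbers gave no clear sign of a pairing of the samples. Same-numbered libraries correlated at 0.041, 0.033 and -0.035 in DU-145, 0.0048, 0.069 and 0.038 in BT-549 and 0.028, 0.015 and -0.017 between the lines. Differently numbered ones ran from -0.085 to 0.056 in DU-145 and from -0.070 to 0.038 in BT-549. These values are on another measure than the r across regions given for replicates above. With 3 replicates per group they cannot exclude a pairing. With a replicate block, all calls went from 43168 to 42588 in DU-145, from 13971 to 12556 in BT-549, from 24532 to 24310 between the lines and from 12611 to 12244 for the difference. In this block fit the FOSB promoter of DU-145 was at 0.22 (edgeR adjusted p = 0.043) and the small FOSL2 promoter region of BT-549 at -1.65 (adjusted p = 0.091).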
